A study of Macaca fascicularis with 11 samples.

Results

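*S100A6*, *S100A14* and *S100A16* are 3 of the 19367 genes counted in single-cell RNA libraries of cynomolgus macaque embryos kept in culture after the blastocyst stage. They were chosen from a readout of the same libraries, because they were among the genes that led several groups of trophoblast-like cells at Day 10, so every Day 10 value below is a description without a test. The rows were found through the Ensembl identifiers that the study's supplementary lists pair with gene names (ENSMFAG00000032857 for *S100A6*, ENSMFAG00000000381 for *S100A14* and ENSMFAG00000032020 for *S100A16*). Those lists also used the wild-type Day 14 cells, with *S100A6* in the trophoblast list and *S100A14* and *S100A16* in the endoderm list, so the wild-type Day 14 libraries were kept out of the tests between lineages.

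S100 proteins are small calcium-binding proteins with EF-hand motifs. They have no enzyme activity of their own, mostly work as dimers, and change shape on binding calcium so that they can dock to target proteins, among them annexins, cytoskeletal proteins and signalling proteins. S100A6, also called calcyclin, is common in epithelial and mesenchymal cells that divide or spread. S100A14 is found mainly in epithelia and binds calcium weakly, and S100A16 is a widely expressed member that can bind S100A14. Trophoblast is the outer epithelium of the embryo that builds the placenta, and in it the cytotrophoblast (CTB) is the proliferating layer, the syncytiotrophoblast (STB) the fused, hormone-making layer and the extravillous trophoblast (EVT) the invasive form. In the RefSeq gene table of assembly T2T-MFA8v1.1, all 3 genes lie on chromosome 1, where *S100A14* and *S100A16* are direct neighbours among protein-coding genes, between *S100A13* and *S100A2*, and *S100A6* lies between *S100A5* and *S100A7*.

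The data came from 6 libraries of wild-type embryos (Day 10, Day 12 and Day 14, with 2 libraries each) and 5 libraries of *ISL1* hypomorphic mutant embryos (1 at Day 10, 2 at Day 12 and 2 at Day 14). Mutant zygotes had been injected with SpCas9 (as mRNA in the labels, as protein in the study's methods) and a pair of guide RNAs against *ISL1*, a transcription factor gene of the amnion, and the study describes them as mosaic, while wild-type embryos carried no edit, and all embryos were grown in the same culture media from thawed blastocysts. Each library pooled the cells of 1 to 3 embryos, 12 wild-type and 11 mutant embryos in all, so the replicate is the library and not the embryo. The libraries held 325 to 9625 cells and 36654977 to 164808415 unique molecular identifiers (UMIs, each standing for 1 captured RNA molecule), with a median of 10916 to 142180 UMIs per cell. At Day 12 and Day 14, median depth was 24720 to 142180 UMIs per cell in wild-type libraries and 10916 to 23378 in mutant libraries. Cell numbers were 325 to 3176 against 3882 to 9625. The study's correction for free RNA removed 0.46% to 2.98% of UMIs against 3.22% to 8.77%. These ranges did not overlap, so genotype cannot be told apart from them at these days. Levels below are in CPM, the UMIs of a gene scaled to a fixed total of UMIs over all genes, summed over the cells of 1 type in 1 library, after the study's correction for free RNA. A level cannot tell fewer cells with a transcript from fewer transcripts per cell. Shares of cells are therefore given for Day 10 trophoblast-like and endoderm-like cells, for the lineages at Day 12 and Day 14, and for *S100A14* in STB-like cells. The other levels, among them those of EVT-like and amnion-like cells and those compared by genotype, are given without shares.

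*ISL1* RNA, the target of the edit, stood at 0.90 to 8.38 CPM over all cells of a wild-type library and at 1.42 to 4.67 CPM in mutant libraries. In amnion-like cells, which are named in part from *ISL1*, it was at 148 and 242 CPM in the wild-type Day 14 libraries and at 39.6 to 284 CPM in the 4 mutant libraries of Day 12 and Day 14. The ranges overlapped, and RNA counted near the 3′ end of a transcript does not show whether the protein was lost. Any pair of libraries shared 0 to 16 cell barcodes, at most 0.52% of the smaller library.

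Cells were grouped by clustering each day without the 6 of 20 listed S100 genes and 7 of 12 annexins that had an identifier in the study's lists. Other members of these families could still enter the clustering. Clusters were called trophoblast-like, Epi-derived-like (epiblast and its derivatives), endoderm-like or ExE-Mech-like (extraembryonic mesenchyme) from lists of marker genes. At Day 12 and Day 14 the 12 trophoblast markers were all found in at least 25% of the trophoblast-like cells of every library, and summed to 16692 to 27726 CPM there against 237 to 1126 CPM in Epi-derived-like cells. The 11 endoderm markers summed to 52252 to 85048 CPM in endoderm-like cells against 56.1 to 137 CPM in trophoblast-like cells. The Day 10 groups that chose the genes fit their name less well, as described next.

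At Day 10, 13 of the 21 clusters were classed as trophoblast-like, and the 3 genes were highest in the same 3 of them, with cluster 5 next in values pooled over libraries. Cluster 13 was above cluster 5 for *S100A6* in both wild-type libraries (8019 against 6891 and 6278 against 6145 CPM) and for *S100A14* in the first (64.3 against 31.8 CPM). Clusters 14, 10, 1 and 5 were almost wholly wild-type, with 71 of 71 cells in cluster 14, 88 of 91 in cluster 10, 182 of 183 in cluster 1 and 130 of 135 in cluster 5. Genes of a cluster were ranked by their fold over the mean of the other Day 10 clusters, with 25 CPM added to both. *S100A14* and *S100A16* were the first genes in cluster 14, *S100A16* was the first in cluster 1, and *S100A6* was among the first 10 in clusters 1 and 10. Cluster 14 held 14592 CPM of *S100A6*, 1666 CPM of *S100A14* and 1565 CPM of *S100A16*. Clusters 10 and 1 followed with 12491 and 10946 CPM of *S100A6*, 681 and 738 CPM of *S100A14*, and 714 and 854 CPM of *S100A16*. Cluster 5, the lowest of the 4, had 6158 CPM of *S100A6*, 86.0 CPM of *S100A14* and 256 CPM of *S100A16*.

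None of the 4 clusters had a trophoblast marker among its first 10 genes. Their named leading genes besides the S100 genes were *CDX1* and *CAMK2N1* in clusters 1 and 5, *PRXL2A* in cluster 1, *CDO1* in cluster 5, *HAND1* and *FTH1* in cluster 10, and the epithelial keratins *KRT8* and *KRT18* in cluster 14. *CDX1* stands in the mesoderm list and *CDO1* in the amnion list. Of the 12 trophoblast markers, 10 or 11 were found in at least 25% of their cells, but these summed to 2938 to 4795 CPM, below the other 9 trophoblast-like clusters (8008 to 67240 CPM) and above the Epi-derived-like clusters (281 to 364 CPM). Their 12 mesoderm markers summed to 281 to 559 CPM, against 5.35 to 133 CPM in the same other 9 clusters. Their 10 amnion markers summed to 143 to 196 CPM, below clusters 8, 13 and 18 (376, 244 and 403 CPM). The rest of the other 9 had 138 CPM or less. Endoderm markers summed to 258 to 483 CPM in the 4 clusters, against 35.8 to 557 CPM in the other 9. Epiblast markers summed to 614 to 1412 CPM, against 142 to 554 CPM. Clusters 1 and 5, with more markers of another class than of their own among their first 10 genes, would have left the trophoblast-like class under the rule applied at Day 12 and Day 14, from which Day 10 was exempt. The 4 clusters are therefore called by their numbers below, and levels are given with and without them.

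**Figure D1:**
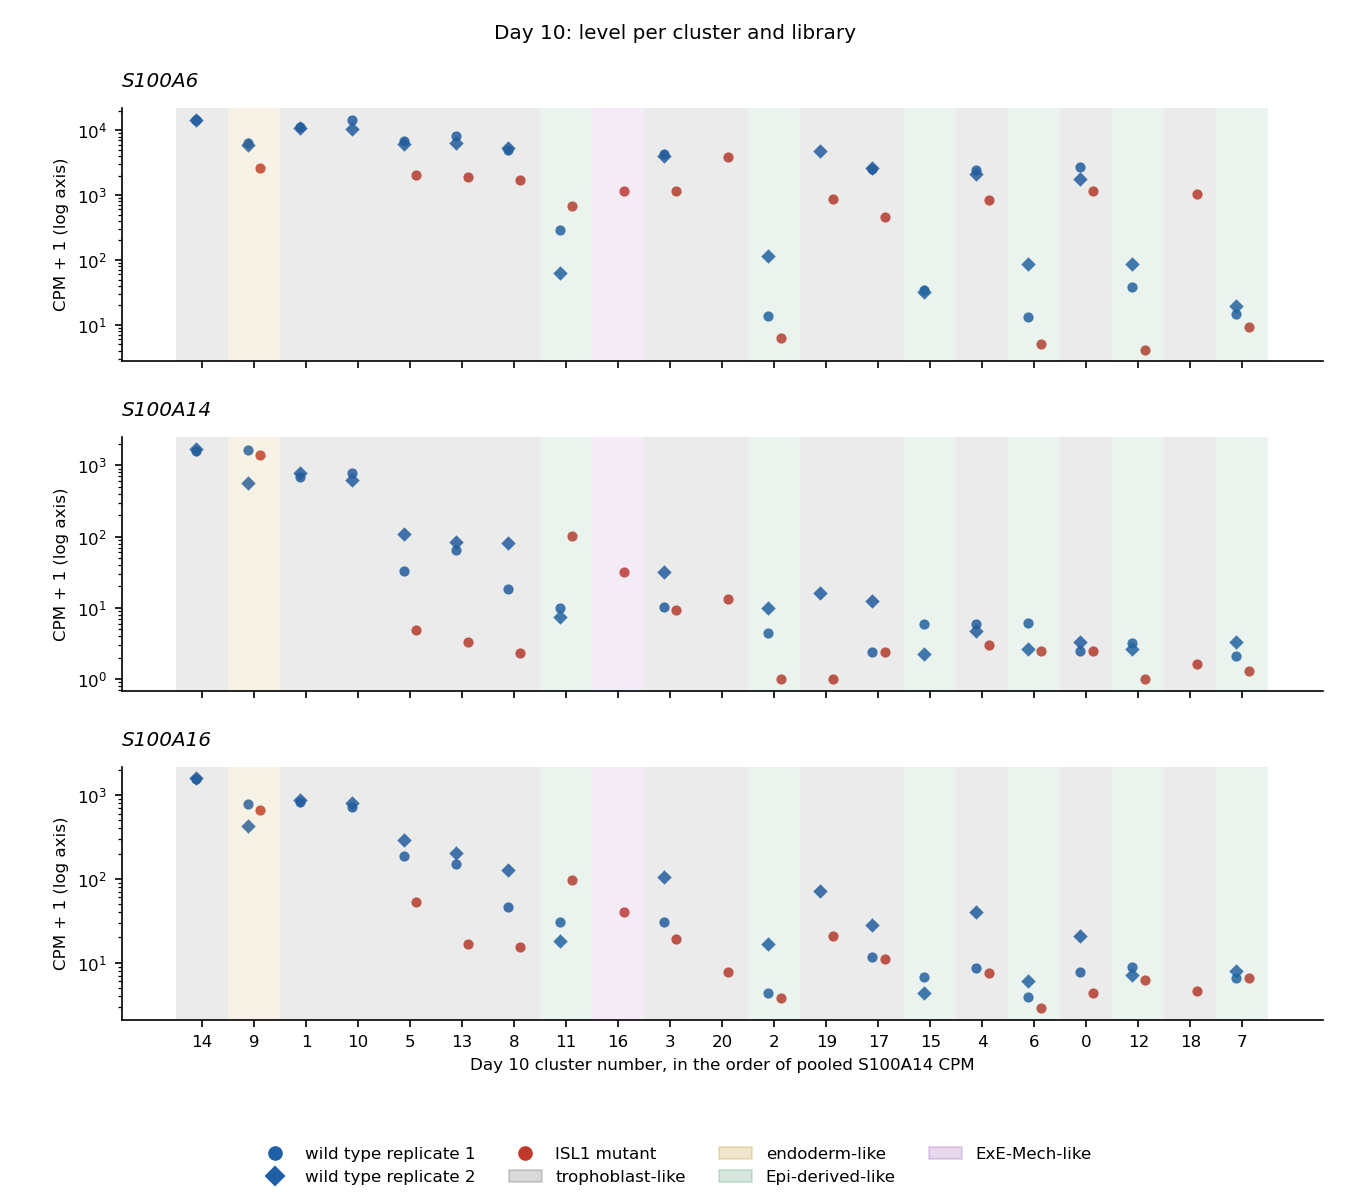
Levels of *S100A6*, *S100A14* and *S100A16* in the Day 10 clusters (vertical axis, CPM + 1 on a log scale; horizontal axis, cluster number ordered by pooled *S100A14*), with a point for each library and shading by lineage. For all 3 genes clusters 14, 10 and 1 stand at the top of the trophoblast-like clusters, clusters 5 and 13 overlap below them for *S100A6* and *S100A14*, and the single endoderm-like cluster (number 9) lies at 5010 CPM of *S100A6*, 1275 CPM of *S100A14* and 648 CPM of *S100A16* over its libraries.

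In trophoblast-like cells of the wild-type Day 10 libraries, *S100A6* stood at 7750 and 7421 CPM, *S100A14* at 357 and 396 CPM, and *S100A16* at 397 and 486 CPM. The single mutant Day 10 library held 1314 CPM of *S100A6* (95% Poisson interval 1305 to 1324, which covers counting error only), 3.77 CPM of *S100A14* (3.28 to 4.31) and 9.23 CPM of *S100A16* (8.46 to 10.1). Both wild-type libraries were above the mutant library for all 3 genes, a difference without a replicate on the mutant side. Markers moved with this gap. In the same cells the 12 trophoblast markers summed to 10279 and 7038 CPM in the wild-type libraries and 20861 CPM in the mutant library, the 11 endoderm markers to 365 and 322 against 76.5 CPM, the 12 mesoderm markers to 245 and 293 against 16.1 CPM, and the 10 amnion markers to 142 and 214 against 87.5 CPM, with at most 2 markers of a list at a count of 0 in a library. Outside the 4 clusters the trophoblast sums were 15979 and 12034 against 21103 CPM and the endoderm sums 415 and 239 against 76.04 CPM. The part of these markers in the levels of the 3 genes was not tested. The 4 clusters held 219 of 448 and 252 of 412 trophoblast-like cells of the wild-type libraries and 9 of 454 of the mutant library. Inside them the wild-type libraries had 743 and 644 CPM of *S100A14*, and outside them 15.96 and 46.8 CPM. For *S100A16* the values were 802 and 752 CPM inside and 39.8 and 112 CPM outside. *S100A6* stood at 11812 and 9596 CPM inside and at 4169 and 4367 CPM outside, where the mutant library had 1269 CPM.

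The libraries were also compared within shared clusters. Of the 7 trophoblast-like clusters with at least 5 cells from each of the 3 libraries, both wild-type libraries were above the mutant library in 7 for *S100A6* and *S100A16* (for *S100A16* in cluster 17 by 10.8 and 26.9 against 9.94 CPM and in cluster 4 by 7.76 and 39.8 against 6.62 CPM, where the first wild-type library was close to the mutant library), though the clusters share their libraries and are not replicates. For *S100A14* the order was the same, but in cluster 0 (1.50 and 2.37 against 1.46 CPM) and cluster 17 (1.43 and 11.4 against 1.42 CPM) the first wild-type library could not be told from the mutant library, and in cluster 3 (9.22 and 30.9 against 8.21 CPM) it was close to it. In cluster 4, classed as CTB-like, *S100A6* was at 2410 and 2145 CPM in the wild-type libraries and at 832 CPM in the mutant library, whereas *S100A14* was at 4.88 and 3.79 against 1.99 CPM. In cluster 13, *S100A14* was at 64.3 and 83.7 against 2.34 CPM and *S100A16* at 149 and 203 against 15.6 CPM. The mutant values there rest on 10 cells, with 3 UMIs of *S100A14* and 20 of *S100A16*. Mutant cells were also few in cluster 5 (5 cells) and cluster 8 (12 cells). With 1 mutant library at this day, genotype and library cannot be told apart.

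Among wild-type Day 10 cells classed as trophoblast-like, clusters 1, 5, 10 and 14 included, *S100A16* was found more often in cells with *S100A14* than in cells without it. With each cell thinned to 5000 UMIs, so that depth was equal, 90.6% of the 171 such cells of replicate 1 that had *S100A14* also had *S100A16*, against 23.5% of the 277 cells without it. In replicate 2 the shares were 95.7% of 184 cells and 46.1% of 228 cells. In the mutant library 8 of 454 cells had *S100A14* and 1 of these 8 had *S100A16*. Most wild-type cells with *S100A14* lay in the 4 clusters, where *S100A16* was found in 96.7% of 153 and 98.2% of 170 cells with *S100A14* and in 60.6% of 66 and 76.8% of 82 cells without it. Outside them the shares were 38.9% of 18 and 64.3% of 14 cells against 11.8% of 211 and 28.8% of 146 cells. In endoderm-like cells of Day 10, *S100A16* was common with or without *S100A14* (100% of 17 against 92.6% of 27 cells in the first wild-type library, 86.7% of 15 against 66.7% of 6 in the second, and 93.3% of 15 against 90.9% of 11 in the mutant library). In a second draw of the thinned UMIs, the one used for all other shares, 153 and 180 wild-type cells and 6 mutant trophoblast-like cells had *S100A14*. In that draw *S100A6* was found in 99.6% and 100% of thinned wild-type trophoblast-like cells and in 96.3% of mutant ones, so its presence hardly separated trophoblast-like cells. Endoderm-like cells of Day 10 differed in the first draw. There *S100A6* was found in 94.1% of 17 cells with *S100A14* against 44.4% of 27 without it in the first wild-type library. The shares were 93.3% of 15 against 83.3% of 6 in the second and 86.7% of 15 against 45.5% of 11 in the mutant library.

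Endoderm-like cells carried all 3 genes at every day. *S100A14* stood there at 1642 and 559 CPM in wild-type Day 10 libraries, at 1126 and 992 CPM at Day 12 and at 204 and 376 CPM at Day 14, and in the mutant libraries at 1410 CPM (Day 10), 540 and 338 CPM (Day 12) and 1022 and 806 CPM (Day 14). *S100A16* was steadier, at 774 and 430, 647 and 704, and 464 and 636 CPM in the wild-type libraries of the same days, and at 671, 696 and 446, and 602 and 474 CPM in the mutant libraries. *S100A6* ranged more widely, at 6261 and 5844, 5652 and 3397, and 2445 and 1132 CPM in the wild-type libraries and at 2589, 2656 and 2792, and 3638 and 9108 CPM in the mutant libraries. The highest of these, the second mutant Day 14 library, rests on 11 endoderm-like cells.

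In trophoblast-like cells after Day 10, *S100A6* remained abundant, while *S100A14* and *S100A16* were sparse. *S100A6* was at 2374 and 2358 CPM in wild-type Day 12 libraries, 2982 and 1054 CPM in wild-type Day 14 libraries, 2556 and 2867 CPM in mutant Day 12 libraries and 3639 and 3471 CPM in mutant Day 14 libraries. *S100A14* was at 3.30 and 10.3, 1.93 and 1.55, 7.98 and 0.97, and 7.96 and 6.96 CPM in the same order of groups. *S100A16* was at 5.48 and 38.7, 3.16 and 14.2, 19.5 and 4.01, and 21.1 and 4.93 CPM. Every Day 12 and Day 14 library lay below both wild-type Day 10 libraries for each gene, and also below the cells of those libraries outside the 4 clusters. For *S100A16* the second wild-type Day 12 library (38.7 CPM) was close to the first wild-type Day 10 library outside the 4 clusters (39.8 CPM). In contrast, the mutant Day 10 library lay within the later range for all 3 genes. The marker sums of the wild-type Day 10 libraries given above also lay outside the later range, which was 16692 to 27726 CPM for trophoblast, 56.1 to 137 CPM for endoderm and 8.30 to 28.1 CPM for mesoderm markers, and their part in the lower levels was not tested.

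In Epi-derived-like cells *S100A6* ranged from 2.62 to 116 CPM over the 8 Day 12 and Day 14 libraries, *S100A14* from 0.38 to 4.45 CPM and *S100A16* from 2.62 to 13.6 CPM. At Day 10 single Epi-derived-like clusters held 12.4 to 292 CPM of *S100A6* in the first wild-type library, 18.5 to 114 CPM in the second and 3.12 to 677 CPM in the mutant library. Pooled over libraries, these clusters held 0.69 to 34.6 CPM of *S100A14* and 3.80 to 42.7 CPM of *S100A16*. ExE-Mech-like cells held 51.8 to 669 CPM of *S100A6*, 0.17 to 2.43 CPM of *S100A14* and 4.32 to 42.8 CPM of *S100A16* over 7 libraries of Day 12 and Day 14. The 1 ExE-Mech-like cluster of Day 10, with 59 cells of the mutant library, held 1152 CPM of *S100A6*, 31.1 CPM of *S100A14* and 39.1 CPM of *S100A16*.

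**Figure D2:**
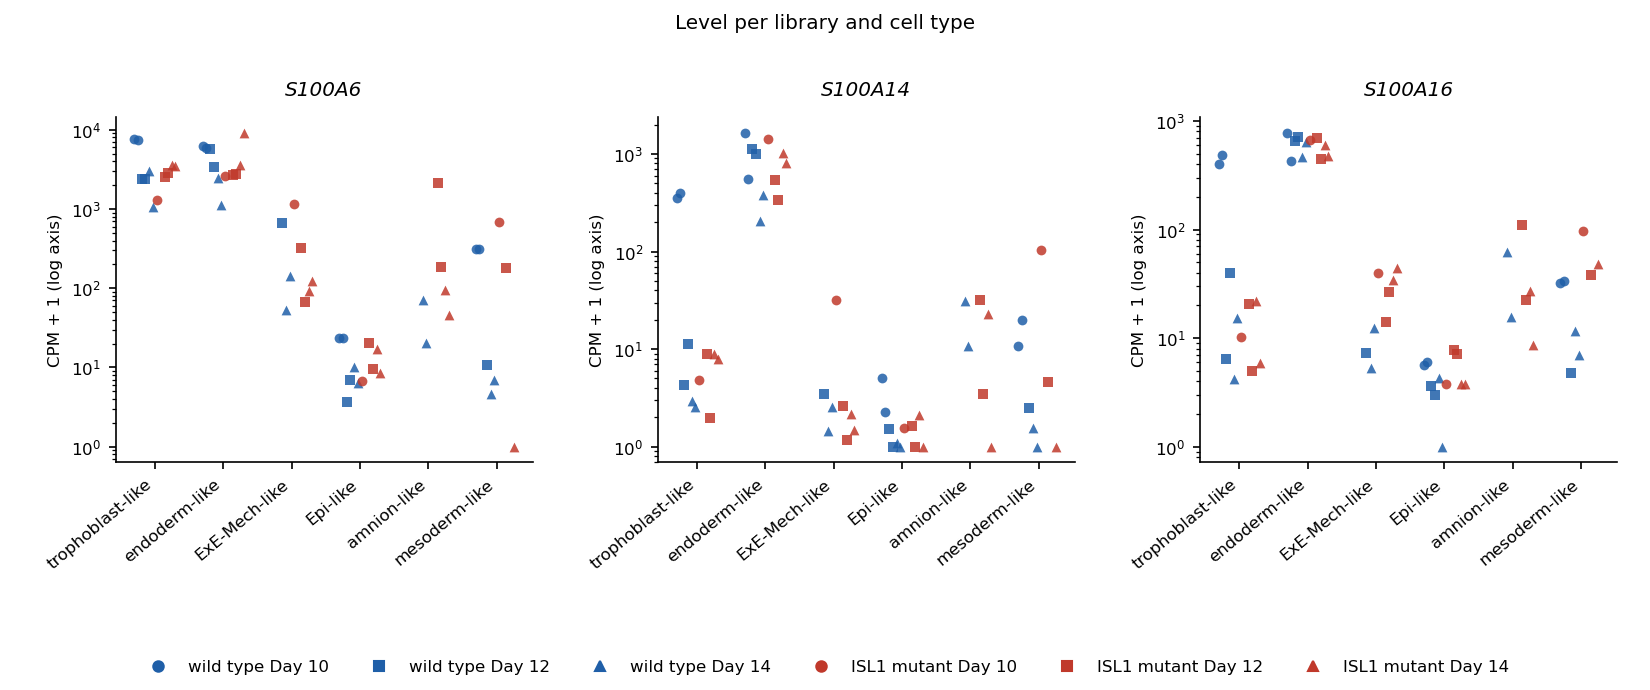
Levels of the 3 genes (vertical axis, CPM + 1 on a log scale) by cell type, each point a library, with colour for genotype and shape for day, and with Epi-derived-like cells split into epiblast-like (Epi-like), amnion-like and mesoderm-like cells. For *S100A14* and *S100A16* the endoderm-like libraries, at 204 CPM or more, lie above all other libraries apart from the 2 wild-type Day 10 trophoblast-like ones, whereas for *S100A6* trophoblast-like and endoderm-like libraries overlap.

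Lineages were compared over 6 libraries that had not chosen the genes, the 4 Day 12 libraries and the 2 mutant Day 14 libraries, with library as a block in edgeR's quasi-likelihood test at a false discovery rate of 1% over 13059 genes. Trophoblast-like cells differed from Epi-derived-like cells in *S100A6* by a log2 fold change of 6.13 ± 0.72 (SE; adjusted p = 4.76e-07, higher in all 6 libraries) and in *S100A14* by 2.05 ± 0.43 (adjusted p = 0.000404), while the *S100A16* difference of 1.09 ± 0.58 did not pass (adjusted p = 0.109). This comparison called 54.2% of all genes tested in either direction, and 28.8% as higher, so that 2 of 3 genes called here is read against a common event. Over all 8 Day 12 and Day 14 libraries, trophoblast-like cells were higher in 7 for *S100A14* and in 6 for *S100A16*, with lowest ratios of 0.70 and 0.30. At Day 10 the lowest ratios, in the mutant library, were 0.27 and 0.56. With the counts as they were before the correction for free RNA, the *S100A6* difference was 4.90, and with clusters made from each library alone it was 3.91 and that of *S100A14* was 0.23 (adjusted p = 0.797). Of the genes called, 53.2% were higher in trophoblast-like cells, against 42.4% with relative log expression size factors, which moved the median log2 fold change of all genes from 0.07 to -0.13.

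Endoderm-like cells exceeded Epi-derived-like cells in all 3 genes, by 6.34 ± 0.73 for *S100A6*, 8.87 ± 0.46 for *S100A14* and 6.20 ± 0.65 for *S100A16* (log2; adjusted p = 1.69e-06, 1.32e-10 and 5.32e-07), in a comparison that called 32.9% of genes, 14.9% as higher. Against trophoblast-like cells, endoderm-like cells were higher in *S100A14* by 6.83 ± 0.39 and in *S100A16* by 5.10 ± 0.60 (adjusted p = 7.17e-11 and 7.76e-07), where 44.5% of genes were called. Here 39.8% of the calls were higher in endoderm-like cells, against 53.0% with relative log expression size factors, with a median log2 fold change of all genes of -0.24 and -0.0038. The *S100A6* difference between these lineages was 0.21 ± 0.57 (adjusted p = 0.781) and was not separable from the spread. Over the 8 Day 12 and Day 14 libraries the ratio of endoderm-like to trophoblast-like level ran from 67.7 to 350 for *S100A14*, from 18.2 to 147 for *S100A16* and from 0.82 to 2.62 for *S100A6*. At Day 10 the same ratio was at most 4.61 for *S100A14* and 1.95 for *S100A16* in the wild-type libraries, and 374 and 72.7 in the mutant library. The wild-type ratios include clusters 1, 5, 10 and 14, and without them the trophoblast-like levels of *S100A14* were 15.96 and 46.8 CPM against 1642 and 559 CPM in endoderm-like cells, and those of *S100A16* 39.8 and 112 CPM against 774 and 430 CPM.

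Shares of cells with *S100A16* and *S100A14* were also higher in endoderm-like than in trophoblast-like and Epi-derived-like cells. In cells thinned to 5000 UMIs at Day 12 and Day 14, *S100A16* was found in 72.7% to 100% of endoderm-like cells of a library, in 0.97% to 9.83% of trophoblast-like cells and in 0% to 6.17% of Epi-derived-like cells. *S100A14* was found in 20.8% to 63.6% of endoderm-like cells and in 0.40% to 3.05% of trophoblast-like cells. In Epi-derived-like cells, the *S100A14* share reached 3.16%, above the highest trophoblast-like share, and no background level was estimated. Median depths were 11451 to 145646 UMIs in trophoblast-like cells and 6766 to 136240 UMIs in Epi-derived-like cells. Without thinning, the shares of trophoblast-like cells were 2.02% to 17.1% for *S100A14* and 8.07% to 31.9% for *S100A16*. *S100A6* was found in 81.5% to 98.9% of thinned trophoblast-like cells, 72.9% to 93.8% of endoderm-like cells and 0% to 16.5% of Epi-derived-like cells.

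Ordered by their median over the Day 12 and Day 14 libraries, the finer types ran for *S100A6* from EVT-like (5188 CPM) through endoderm-like (3095), STB-like (2074), CTB-like (1190), ExE-Mech-like (121), amnion-like (81.3) and epiblast-like cells (8.03) to mesoderm-like cells (5.96). Each neighbour in that order overlapped with the next in its range over libraries. The medians of all 3 genes rest on 8 libraries for EVT-like, endoderm-like, CTB-like and epiblast-like cells. ExE-Mech-like cells had 7 libraries, amnion-like cells 6, and STB-like and mesoderm-like cells 5. Types therefore also differ in the genotypes and days behind their medians. For *S100A14* endoderm-like cells (median 673 CPM) stood apart from amnion-like cells (15.7 CPM), which came next, and for *S100A16* endoderm-like cells (619 CPM) stood apart from amnion-like cells (23.6 CPM). All later neighbours overlapped, down to epiblast-like cells at 0.049 CPM of *S100A14* and 2.75 CPM of *S100A16*.

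Amnion-like cells, few in every library (11 to 63 cells over 6 libraries), had 1 library that stood apart for *S100A6*. Of the 10 amnion markers, 7 to 10 were found in at least 25% of these cells. *S100A6* was at 69.3 and 19.4 CPM in wild-type Day 14 libraries, at 2152 and 186 CPM in mutant Day 12 libraries and at 93.3 and 45.4 CPM in mutant Day 14 libraries. The first mutant Day 12 library, with 29 amnion-like cells, lay above all the others, and its 12 trophoblast markers summed to 2758 CPM in those cells, with 9 of 12 in at least 25% of them and 0 at a count of 0. The sum was 406 and 300 CPM in the wild-type libraries and 855 to 1516 CPM in the other mutant libraries, where 3 or 4 of the 12 markers reached 25% of cells, and its part in the *S100A6* level was not tested. With another random seed for the clusters, 0 cells of that library were amnion-like.

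*S100A14* in amnion-like cells stood at 30.0 and 9.69 CPM in wild-type Day 14, 30.8 and 2.50 CPM in mutant Day 12 and 21.7 and 0 CPM in mutant Day 14 libraries, where the 0 allows up to 5.68 CPM. *S100A16* stood at 60.9 and 14.5, 108 and 21.2, and 26.0 and 7.57 CPM in the same order. For both genes the genotypes overlapped. Mutant against wild type, with day in the fit, the differences were 0.42 ± 0.99 for *S100A6*, -1.16 ± 1.20 for *S100A14* and -1.43 ± 0.87 for *S100A16* (log2, edgeR, adjusted p = 0.877, 0.667 and 0.445). Wild-type sums exist at Day 14 alone, so these differences rest on 2 against 2 libraries of that day, and the mutant Day 12 libraries add to the estimate of spread only. edgeR called 1 of 5518 genes (0.0181%), the gene without a symbol ENSMFAG00000028216, higher in the mutant libraries, with 901 genes at an unadjusted p under 0.05, and DESeq2 called 19.

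Among trophoblast subgroups, *S100A6* was higher in EVT-like than in CTB-like cells in all 8 Day 12 and Day 14 libraries. EVT-like cells, named from *LAIR2*, *ISM2* and *PECAM1* alone, since these were the listed EVT markers with an identifier, held 3892 and 2738 CPM in wild-type Day 12 libraries, 6825 and 3134 CPM in wild-type Day 14 libraries, and 4870, 5506, 8191 and 7730 CPM in the mutant libraries. CTB-like cells of the same libraries held 2302 and 2392, 651 and 893, and 1470, 1209, 592 and 1171 CPM. The groups did not overlap, and the ratio within a library ran from 1.14 to 13.8. STB-like cells, seen in 5 libraries with at least 5 cells, held 608 CPM in the first wild-type Day 14 library and 1450, 2671, 2074 and 3593 CPM in the mutant libraries, above CTB-like cells in 3 of 5.

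**Figure D3:**
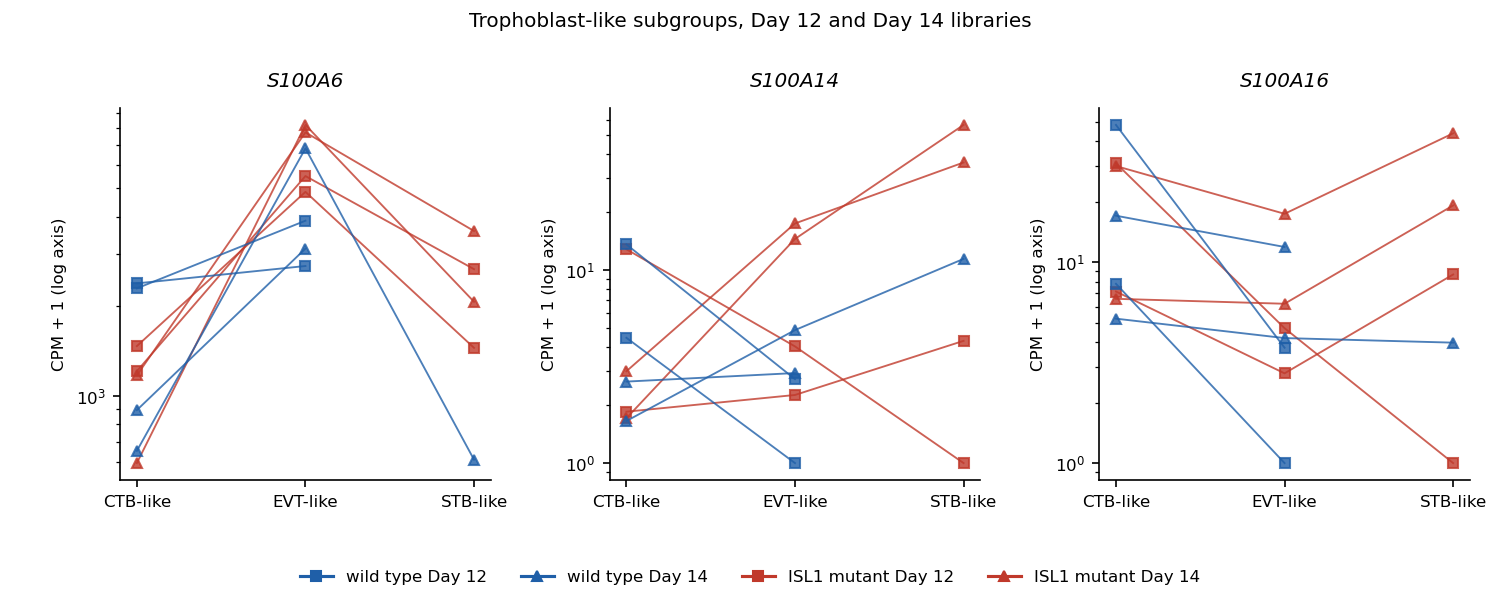
Levels of the 3 genes in CTB-like, EVT-like and STB-like cells (vertical axis, CPM + 1 on a log scale), with a line joining the values of 1 library, coloured by genotype. *S100A6* climbs from CTB-like to EVT-like cells in all 8 Day 12 and Day 14 libraries, while *S100A16* is lower in EVT-like cells in all 8.

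The subgroup test used the 5 libraries with all subgroups, of which 4 are mutant. Both wild-type Day 12 libraries and the second wild-type Day 14 library had too few STB-like cells and were left out. They include the lowest EVT-like to CTB-like ratio of *S100A6* among the 8 libraries (1.14), so the fold change below does not cover them. *S100A6* was higher in EVT-like than in CTB-like cells by a log2 fold change of 2.95 ± 0.37 (edgeR, adjusted p = 1.05e-05), in a comparison that called 43.9% of 13126 genes. *S100A14* differed by 1.78 ± 0.72 (adjusted p = 0.0474) and *S100A16* by -1.03 ± 0.37 (adjusted p = 0.0262), and neither passed. Without the first mutant Day 12 library, whose STB-like sum had 8 cells, the *S100A14* difference was 2.76 (adjusted p = 0.000419). Without the second mutant Day 14 library, *S100A16* passed as lower in EVT-like cells at -1.29 (adjusted p = 0.0095).

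In STB-like against CTB-like cells *S100A14* was higher by 3.87 ± 0.92 (adjusted p = 0.00273) and *S100A6* by 1.29 ± 0.35 (adjusted p = 0.0069), while *S100A16* differed by 0.81 ± 0.50 (adjusted p = 0.191), and 39.5% of genes were called. *S100A14* in STB-like cells stood at 10.4 CPM in the wild-type Day 14 library and at 0, 3.30, 35.1 and 55.5 CPM in the mutant libraries, where the 0 rests on 8 cells and allows up to 31.5 CPM. In cells thinned to 5000 UMIs the share with *S100A14* was 28.1% of 171 cells in the second mutant Day 14 library (95% exact interval 21.5 to 35.4) and 7.69% of 52 cells in the wild-type Day 14 library (2.14 to 18.5). In the other mutant libraries it was 8.0% of 25 cells at Day 14 (0.98 to 26.03) and 0 of 8 and 0 of 62 cells at Day 12, where exact intervals reach 36.9% and 5.78%. Both calls were lost when single libraries were left out, that of *S100A14* without any of 3 libraries (2.92 without the second mutant Day 14 library, adjusted p = 0.0402) and that of *S100A6* without any of 3 (1.06 without the first mutant Day 14 library, adjusted p = 0.0350). With clusters made in each library alone the *S100A14* call was also lost (1.40, adjusted p = 0.245) and *S100A16* stood at -0.73 (adjusted p = 0.237), and with uncorrected counts the *S100A6* call was lost (1.11, adjusted p = 0.0109).

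Single clusters departed from their type. At Day 14 the EVT-like cluster 29 held 17332 CPM of *S100A6*, the highest of any cluster at any day, over 346 cells of which 72 were wild-type. At Day 12 the CTB-like cluster 11, led by the metallothionein gene *MT1M*, held 4138 CPM of *S100A6*, 46.8 CPM of *S100A14* and 102 CPM of *S100A16* over 498 cells, 109 of them wild-type. An unnamed Day 12 cluster led by *ANKRD1* and *TAGLN*, genes of contractile and stretched cells of which *ANKRD1* also stands in the amnion list, held 8968 CPM of *S100A6*, 48.2 CPM of *S100A14* and 74.7 CPM of *S100A16* in 119 cells, 1 of them wild-type. Among ExE-Mech-like clusters, Day 14 cluster 39 held 220 CPM of *S100A16* in 77 cells. At the low end, Day 14 endoderm-like cluster 40, with 30 cells and 0 wild-type cells, held 126 CPM of *S100A6*, 101 CPM of *S100A14* and 163 CPM of *S100A16*, against 2920 CPM of *S100A6* and 534 CPM of *S100A16* in endoderm-like cluster 35 of that day.

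Mutant and wild-type libraries were compared at Day 12 and Day 14 (4 against 4) with day in the fit. Depth, cell number and the share of UMIs removed as free RNA differed between these genotypes without overlap, as given above. Their part in any genotype difference was not tested. In trophoblast-like cells none of the 3 genes passed, with log2 differences, mutant against wild type, of 0.46 ± 0.34 for *S100A6* (adjusted p = 0.511), 0.72 ± 0.80 for *S100A14* (adjusted p = 0.677) and -0.13 ± 0.81 for *S100A16* (adjusted p = 0.953). edgeR called 0 of 13993 genes here (0% of those tested), with 2363 at an unadjusted p under 0.05, and DESeq2 called 439. The wild-type and mutant ranges of *S100A6* overlapped, at 1054 to 2982 and 2556 to 3639 CPM. The labels give each library as batch B1 or B2, and in batch B1 *S100A6* was at 2374 and 2982 CPM in wild-type and at 2556 and 3639 CPM in mutant libraries, whereas in batch B2 it was at 2358 and 1054 against 2867 and 3471 CPM.

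EVT-like cells made up 5.19% to 29.4% of trophoblast-like cells in the wild-type libraries and 21.9% to 28.8% in the mutant libraries. In comparisons chosen after the values were seen, the *S100A6* difference by genotype was -0.31 ± 0.31 in CTB-like cells alone (edgeR, adjusted p = 0.656) and 0.67 ± 0.30 in EVT-like cells alone (adjusted p = 0.373). The EVT-like levels of the genotypes, given above, overlapped, and the part of the EVT-like share in the overall difference was not tested.

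Between Day 14 and Day 12, trophoblast-like cells differed by 0.13 ± 0.34 in *S100A6*, -0.51 ± 0.80 in *S100A14* and -0.58 ± 0.81 in *S100A16* (log2, adjusted p = 0.928, 0.869 and 0.850). edgeR called 0% of genes, with 1319 at an unadjusted p under 0.05, and DESeq2 called 100. Single subgroups showed other orders for *S100A6*. Its CTB-like levels, given above, were lower in every Day 14 library than in every Day 12 library. Its EVT-like levels were higher at Day 14 than at Day 12 in the mutant libraries and overlapped between the days in wild type. In CTB-like cells alone, compared after the values were seen, edgeR called 0 of 12601 genes by day. How many genes share these orders was not counted.

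In endoderm-like cells the mutant against wild-type differences were 0.54 ± 0.59 for *S100A6*, 0.21 ± 0.58 for *S100A14* and -0.11 ± 0.22 for *S100A16* (adjusted p = 0.872, 0.978 and 0.954). edgeR called 0% of 6523 genes there, with 549 at an unadjusted p under 0.05, and DESeq2 called 33; with the batch as a replicate block edgeR called 1. In Epi-derived-like cells, which had no test of genotype, *S100A6* stood at 2.62, 10.2, 10.7 and 15.9 CPM in wild-type and at 116, 38.9, 71.5 and 62.6 CPM in mutant libraries of Day 12 and Day 14. The groups did not overlap, but how many of all genes separate them was not counted, so nothing is read from it. In the first mutant Day 12 library 977 of the 1298 UMIs came from the 29 amnion-like cells described above, and in the second 149 of 186 came from 41 amnion-like cells. Without amnion-like cells, an alternative added after the values were seen, the levels were 2.62, 7.62, 8.21 and 15.6 CPM in wild-type and 29.98, 9.28, 68.5 and 66.99 CPM in mutant libraries, and the groups overlapped. The 12 trophoblast markers moved the same way in these cells, summing to 237 to 289 CPM in wild-type and 524 to 1126 CPM in mutant libraries, and before the correction for free RNA *S100A6* was at 20.0, 19.7, 51.6 and 16.2 CPM against 164, 105, 180 and 108 CPM. The part of these, and of the depth and cell number that differed by genotype, in the *S100A6* level was not tested. In ExE-Mech-like cells *S100A16* was at 6.34, 4.32 and 11.3 CPM in wild-type and at 13.2, 25.6, 33.03 and 42.8 CPM in mutant libraries, also without overlap, a test or a count over all genes. The 12 trophoblast markers summed to 686 to 1073 CPM in these cells of wild-type and 1202 to 1873 CPM of mutant libraries. Their part in the *S100A16* level, and that of depth and cell number, was not tested.

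Of the other S100 genes and the annexins, calcium-dependent membrane-binding proteins that S100 dimers can bridge, 6 of 20 listed S100 genes (these 3 included) and 7 of 12 annexins had an identifier. In trophoblast-like against Epi-derived-like cells 6 of these 10 were higher and 0 lower, where 28.8% of all genes tested were higher and 25.4% lower. These 10 genes have an identifier because the study's lists of markers and changed genes name them, so the share of all genes is no background for this or the later counts, and nothing is read from an excess over it. The highest was *S100P*, a member first found in placenta, at 7.00 ± 0.70 (log2), followed by *ANXA4* at 4.28 ± 0.30, *ANXA1* at 3.67 ± 0.33 and *S100A11*, a partner of annexin A1, at 3.46 ± 0.35. In endoderm-like against Epi-derived-like cells 6 of the same 10 were higher and 0 lower (14.9% and 18% of all genes tested, again no background for them), among them *ANXA4* at 3.89 ± 0.30, *ANXA6* at 2.88 ± 0.23 and *S100A10*, the partner of annexin A2, at 2.51 ± 0.24.

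Between endoderm-like and trophoblast-like cells 6 of the 10 genes differed in level and 4 were not called. Of the 10, 3 were higher in endoderm-like cells (*ANXA6* by 3.21 ± 0.23, *S100A10* by 2.39 ± 0.24 and *ANXA5* by 0.96 ± 0.29), as were 17.7% of all genes tested, and 3 were lower (*ANXA1* by -5.12 ± 0.45, *S100P* by -5.07 ± 0.66 and *S100A11* by -1.93 ± 0.33), as were 26.8%. The call of *ANXA5* was lost without any of the 3 mutant libraries other than the first of Day 14 (1.03 to 1.14). *S100A14* and *S100A16* stood with the first set and *S100A6* with neither. In EVT-like against CTB-like cells 6 were higher and 1 lower (23.5% and 20.4% of all genes tested), with *ANXA1* at 3.32 ± 0.44, *S100A11* at 2.27 ± 0.18 and *ANXA9* at -2.32 ± 0.20. In STB-like against CTB-like cells 5 were higher and 2 lower (19.5% and 20% of all genes tested), with *ANXA9* at 4.20 ± 0.20, *ANXA1* at 4.18 ± 0.45 and *ANXA6* at -1.87 ± 0.46, whose call was lost without any of 3 libraries (-2.10 to -1.71). None of those tested was called between genotypes or days.

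**Figure D4:**
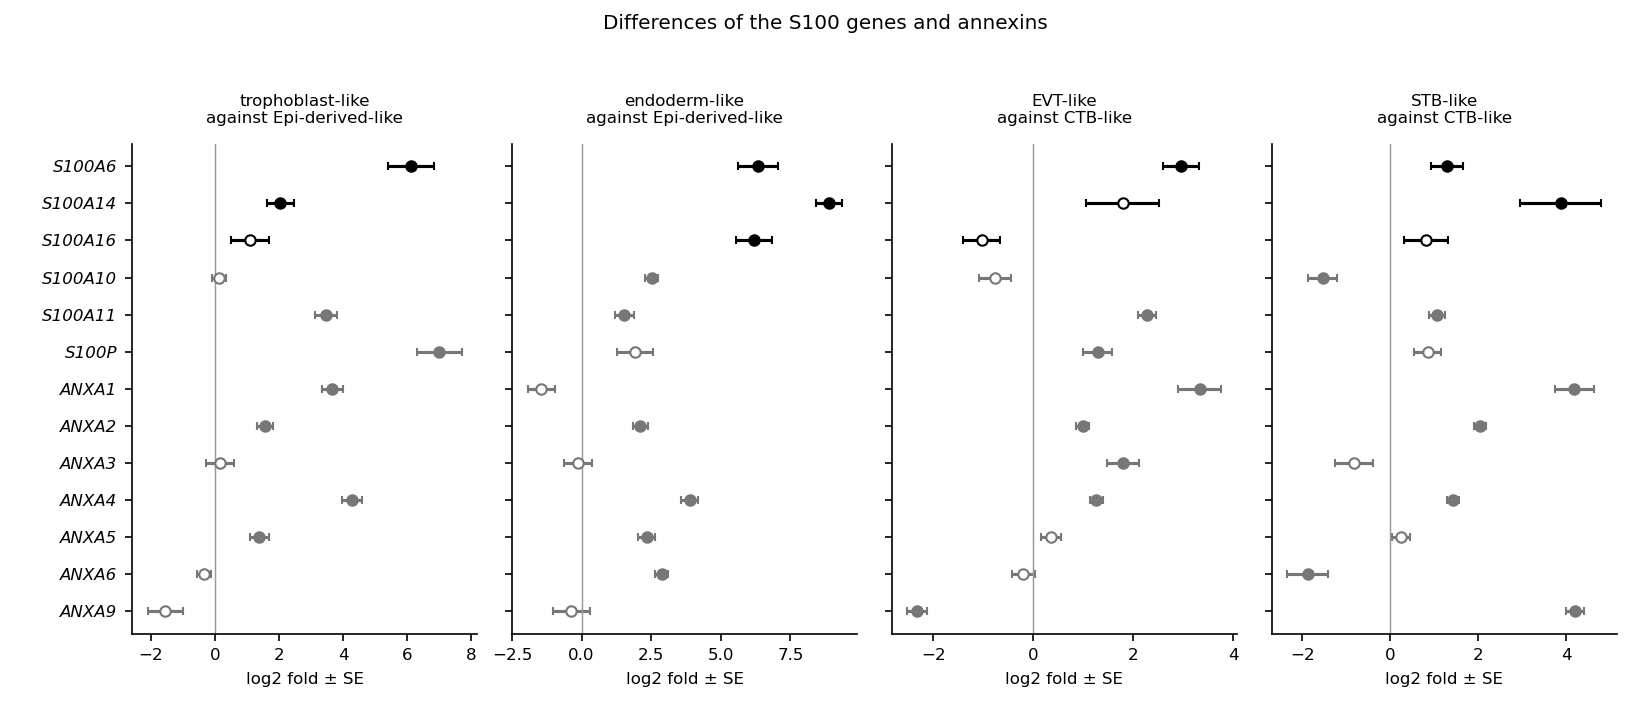
Log2 fold changes (horizontal axis, scaled separately in each panel, bars 1 SE) of the S100 genes and annexins in 2 comparisons between lineages and 2 between trophoblast subgroups, with the 3 genes in black and filled symbols where the adjusted p was 0.01 or less. *S100A6* is filled in all 4 panels, *S100A14* is the highest gene in the endoderm-like panel at 8.87, and *S100A16* is filled there alone, at 6.20.

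Across 37 sums of a library and lineage with at least 20 cells, the named genes whose log2(CPM + 1) pattern was most like each gene were compared among 1023 genes. These sums share libraries and cell types, and they include the Day 10 trophoblast-like sums, from which the genes were chosen. The genes compared have names because the study's lists name them. Of those given below, *APOA1* and *CDKN1C* also served as markers for naming endoderm-like and trophoblast-like cells. The coefficients are therefore descriptive. *S100A6* was most like *ANXA4* (Pearson r = 0.90), then *FDX1* (0.83), *RHOC* (0.81), *LY6E* (0.80) and *CDKN1C* (0.80). *S100A14* was most like *RAB17* (0.93), *S100A16* (0.93) and *APOA1* (0.90), then LOC102122400 (0.90) and *TMEM82* (0.89). *S100A16* was most like *S100A14* (0.93), then LOC102122400 (0.92), LOC101865018 (0.90), *APOA1* (0.90) and *RAB17* (0.90). The coefficient of *S100A6* was 0.67 with *S100A14* and 0.58 with *S100A16*.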

How the data were processed

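Single-cell RNA was counted with the 10x 3′ chemistry in 11 libraries, with UMIs as the unit. Per the methods and processing notes of the study, reads were counted by Cell Ranger 3.1.0 on an Ensembl annotation of the Macaca_fascicularis_5.0 build, and the authors kept genes seen in a minimum number of cells and filtered cells on mitochondrial share and gene number. The deposited estimated counts are those UMI counts after the authors subtracted free RNA with SoupX, which they set from choriogonadotropin RNA in *POU5F1*-positive cells, and all of these values were whole. They held 19367 genes and 33330 cells and were used for every main value. The deposited counts before that step served as an alternative, without 209 cells found there alone.

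Each day was clustered with Seurat 5.3.0 (R 4.3.3) on 5000 genes without the S100 genes and annexins that had an identifier, with 30 dimensions and a resolution of 0.8 (1.5 for single libraries), on a UMAP from uwot 0.2.3 with seed 42. Gene names came from the study's supplementary lists (1024 of 19367 genes), and the RefSeq table of assembly T2T-MFA8v1.1 was used for gene neighbours only. A cluster was named "-like" from marker lists when at least 3 markers were found in 25% or more of its cells and its list score led by the set margin, with annexins left out of the amnion list. STB-like cells rest on 5 of 10 listed markers and EVT-like cells on 3 of 11, those with an identifier. After the clusters were seen, 3 rules were added. Clusters of Day 12 and Day 14 led by more markers of another class left their class (157 cells at Day 12), Epi-derived-like subclusters with at least 3 trophoblast markers among their first 10 genes were left out as mixed (40 cells at Day 12 and 54 at Day 14), and subclusters led by another list stayed unnamed. Day 10 was exempt from the first rule, under which clusters 1 and 5 of that day would have left the trophoblast-like class. No doublet caller was run.

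UMIs were summed per library and type (at least 5 cells) and tested with edgeR 4.0.16 (quasi-likelihood, TMM scaling, two-sided, Benjamini-Hochberg over all genes tested, false discovery rate 1%). DESeq2 1.42.0, other scaling, filters, cell minimums, clusterings, blocks and single left-out libraries were alternatives, and the code was checked on simulated counts. Labels do not say which embryos went into which library beyond their number, so p-values measure the spread between libraries. The labels give a batch, B1 or B2, to each library, without saying whether it is shared across days or genotypes. The deviations of same-numbered libraries correlated at -0.17 to 0.21 over 14017 genes. Poisson and binomial intervals (95%) and the limit of 3 counts for a 0 cover counting error only. Python 3.11.15, numpy 2.4.6, scipy 1.17.1 and scanpy 1.11.5 were used for levels and shares.

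The 3 genes, the marker lists and the tests were chosen with earlier results of these data known. Genes were named by a rule: the 3 genes, other S100 genes and annexins with an identifier, 5 partners (*CACYBP*, *SUGT1*, *AHNAK*, *AGER* and *BSG*, of which 0 had an identifier) and the 5 named genes most like each of the 3. The leading genes of clusters and the gene called in amnion-like cells were named after their values were seen.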

Additional observations from a re-analysis of the deposited data

Results flagged for a closer look

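Over 45 groups of 4 libraries or more, a gap that sets 1 library apart by Dixon's criterion was found in 4, and chance gives about 1 in 20. *S100A6* in amnion-like cells of the first mutant Day 12 library stood at 2152 CPM, with the next mutant library at 186 CPM and the lowest at 45.4 CPM. *S100A6* in endoderm-like cells of the second mutant Day 14 library stood at 9108 CPM, with the next at 3638 and the lowest at 2656 CPM, and rests on 11 cells. *S100A14* in trophoblast-like cells of the second mutant Day 12 library was at 0.968 CPM, below the other 3 mutant libraries at 6.96 to 7.98 CPM. *S100A14* in CTB-like cells of the first mutant Day 12 library was at 11.8 CPM, with the next at 1.99 and the lowest at 0.708 CPM. In the same cells the wild-type Day 12 libraries held 3.46 and 12.6 CPM of *S100A14*.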

How the results depend on the processing

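Of 435 alternatives for the differences of the 3 genes, 391 kept direction and call, 32 changed direction (all among differences that had not passed the test), 9 lost a call and 3 gained one. Levels moved by the SD over Day 12 and Day 14 libraries or more in 21 of 374 alternatives. With thinning, 91 of 123 shares left the binomial interval of the unthinned share, which covers counting error only. Since thinning can only lower detection within a cell, this count is no measure of dependence on processing. DESeq2 called 439 genes between genotypes and 100 between days in trophoblast-like cells, 33 between genotypes in endoderm-like and 19 in amnion-like cells. Without a filter on low counts edgeR called 4, 1, 165 and 187 genes in these comparisons. Sums of at least 20 cells gave 2663 genes for endoderm-like against Epi-derived-like cells and 3 between genotypes in amnion-like cells, and log2 differences of -0.16 for *S100A6* between endoderm-like and trophoblast-like cells, 0.21 for *S100A16* by genotype in endoderm-like cells, -0.014 for *S100A6* by genotype in amnion-like cells and 2.76 for *S100A14* in EVT-like against CTB-like cells. Clusters of each library alone gave 3 genes by genotype in endoderm-like and 59 in amnion-like cells, 0.23 for *S100A14* in trophoblast-like against Epi-derived-like cells, -0.032 for *S100A6* by genotype in endoderm-like cells, and 1.40 for *S100A14* and -0.73 for *S100A16* in STB-like against CTB-like cells. Seed 1 gave 6 genes in amnion-like cells. Uncorrected counts gave 1 gene by genotype in endoderm-like cells and 1.11 for *S100A6* in STB-like against CTB-like cells (adjusted p = 0.0109). Without the library block, EVT-like against CTB-like cells gave 3825 genes.

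By genotype, *S100A14* differed by -0.63 on Day 12 alone and *S100A16* by 0.65 on Day 14 alone. In subgroups, chosen after seeing the data, CTB-like cells gave -0.31 for *S100A6*, -0.047 for *S100A14* and 0.12 for *S100A16* by genotype, and -1.07 for *S100A6* by day. EVT-like cells gave 1 gene and 0.95 for *S100A16* by genotype, and 8 genes, 2.71 for *S100A14* (adjusted p = 0.0396) and 2.04 for *S100A16* by day.

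With single libraries left out, the genes called ranged from 2817 (without the first mutant Day 12 library) to 4188 for endoderm-like against Epi-derived-like cells, from 0 to 29 (without the first wild-type Day 14 library) by genotype in trophoblast-like cells, from 0 to 3 in endoderm-like cells, and from 0 (without the first wild-type or first mutant Day 14 library) to 4 in amnion-like cells. The log2 differences of *S100A6* ranged from -0.027 to 0.53 between endoderm-like and trophoblast-like cells, -0.19 to 0.44 by day, -0.033 to 0.97 by genotype in endoderm-like and -0.044 to 1.84 in amnion-like cells, and 1.06 to 1.54 in STB-like against CTB-like cells. Those of *S100A14* ranged from -1.17 to 0.068 by day, -0.38 to 0.77 by genotype in endoderm-like and -6.87 to 0.11 in amnion-like cells, 1.20 to 2.76 in EVT-like and 2.92 to 4.71 in STB-like against CTB-like cells. Those of *S100A16* ranged from -0.80 to 0.76 by genotype in trophoblast-like, -0.22 to 0.0068 in endoderm-like and -2.40 to 0.20 in amnion-like cells, -1.26 to 0.30 by day, and -1.29 to -0.61 in EVT-like against CTB-like cells. The cause of these changes was not tested.

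With the batch as a replicate block, the genotype differences in trophoblast-like cells were 0.53 for *S100A6*, 0.73 for *S100A14* and -0.05 for *S100A16*. The block changed the count by genotype in endoderm-like cells to 1 and no other call. Depth limits sums of few cells, such as the amnion-like cells of the second wild-type Day 14 library, where a count of 0 allows up to 14.5 CPM, above the level of its 2 UMIs of *S100A14*, and the STB-like cells of the first mutant Day 12 library, where it allows up to 31.5 CPM.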
